A study of Caenorhabditis elegans with 2 samples.

Results

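The genes described here make the small nuclear RNAs (snRNAs) and the spliced leader RNAs of Caenorhabditis elegans, and the data say which of them had a peak of the ZTF-29 protein in the embryo. They are all 129 genes of the biotype snRNA in the Ensembl annotation of the nuclear chromosomes, of 46890 genes annotated there, and every gene with a symbol starting with sls- was among them. A gene was counted as at a peak when a peak's summit, its single highest base, lay within 200 bp of the gene. The genes were taken by their annotation and not by a measured value, though earlier results of these data were known when this class was picked.

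ZTF-29 is a protein of the zinc finger family, and it was mapped by chromatin immunoprecipitation with sequencing (ChIP-seq), which recovers the DNA that a tagged protein sits on. All embryos came from strain RW12283, in which a TY1, EGFP and 3xFLAG tag (allele st12283, on chromosome III) was inserted at the endogenous ztf-29 gene by CRISPR, and the antibody was directed against GFP. The labels describe whole mid-stage embryos collected by egg bleaching, with an age of 0 hour, so each peak averages over all cell types of the embryo. There was a single group of 2 biological replicates, with no untagged strain, other stage or treatment, so nothing could be tested between conditions and no p-value is given. The files hold no expression values, so the labelled stage could not be checked against marker genes.

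The snRNAs are the RNA parts of the spliceosome, the machine that cuts introns out of messenger RNA. U1 pairs with the start of an intron and U2 with the branch point, while U4, U5 and U6 join as one particle in which U4 holds U6 until the spliceosome is activated. Worms also splice a short leader RNA onto the front of most messages. SL1 goes mainly to genes with a promoter of their own, and SL2 to the downstream genes of operons, groups of genes transcribed as one unit. SmY RNAs are small nematode RNAs bound by the same Sm proteins as the leader RNAs. In animals U6 is made by RNA polymerase III and most other snRNAs by RNA polymerase II, and both kinds of promoter use the snRNA activating complex SNAPc. The tRNA genes, used below for comparison, are also made by RNA polymerase III.

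The 3 RNAs below represent the U4, U1 and SL2 genes, which had a gene at a peak, and show what tells them apart. The letters are DNA of the RNA strand from the RefSeq sequence of WBcel235, which is ce11. Capitals mark the short element by which each type was recognised: GCTTTGC in U4, which occurs again further along, and ACTTACC in U1, which pairs with the start of the intron. In the SL2 gene they mark the first 22 bases, the leader that is moved onto the message.
U4 gene C52E4.8, chrV:11980118-11980261, plus strand: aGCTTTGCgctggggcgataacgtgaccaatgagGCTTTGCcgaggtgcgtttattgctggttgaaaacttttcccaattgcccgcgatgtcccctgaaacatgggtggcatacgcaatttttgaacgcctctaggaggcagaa
U1 gene sup-39, chrII:6968394-6968558, minus strand: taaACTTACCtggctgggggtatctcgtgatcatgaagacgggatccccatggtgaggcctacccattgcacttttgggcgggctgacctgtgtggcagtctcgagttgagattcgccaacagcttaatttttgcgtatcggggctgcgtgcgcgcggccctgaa
SL2 gene sls-2.1, chrII:5844865-5844974, plus strand: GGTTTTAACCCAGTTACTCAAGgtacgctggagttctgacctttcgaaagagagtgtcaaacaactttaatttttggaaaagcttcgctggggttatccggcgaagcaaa
The U4 letters of C52E4.8 occurred in 2 annotated genes without a difference, and the RNA of the U6 gene C28A5.7 in 14. Copies of one RNA therefore differed only in the DNA around them, which is shown next.

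The 100 bases upstream of U6 genes are shown because genes with the same RNA, letter for letter, had different peak calls. The genes shown share 1 RNA apart from F54D8.7, which is 99% the same and has 2 exact copies that were not at a peak (Y17G9A.85 and T08B6.62). The first 4 genes were at a listed peak and the last 3 were not. F54C8.9 and K09B11.11 were shown as examples that no rule picked. Of the 32-base words in the 200 bp on each side of these 2, 69.5% and 54.1% occurred once in the genome. This share was 93.2% for R07E5.16 and at least 71.3% for every gene at a listed peak. Capitals mark TATAAA, a form of the TATA box, and the word GTCTGC, each on either strand. TTTATA is thus marked as TATAAA on the other strand.
C28A5.7, chrIII:4426956-4427055, minus strand: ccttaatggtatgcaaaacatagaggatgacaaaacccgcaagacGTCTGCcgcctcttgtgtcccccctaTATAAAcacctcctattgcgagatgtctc
F54D8.7, chrIII:5080899-5080998, minus strand: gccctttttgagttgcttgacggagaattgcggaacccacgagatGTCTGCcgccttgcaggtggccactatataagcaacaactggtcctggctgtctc
W05B2.8, chrIII:10989579-10989678, plus strand: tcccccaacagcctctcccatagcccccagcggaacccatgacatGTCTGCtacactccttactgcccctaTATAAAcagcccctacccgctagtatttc
K09C6.12, chrV:858991-859090, plus strand: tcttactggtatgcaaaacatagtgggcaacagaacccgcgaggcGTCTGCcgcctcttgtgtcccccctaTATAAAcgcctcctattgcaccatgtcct
R07E5.16, chrIII:4414085-4414184, plus strand: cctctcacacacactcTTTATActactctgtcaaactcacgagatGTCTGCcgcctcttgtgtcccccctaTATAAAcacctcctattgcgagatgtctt
F54C8.9, chrIII:9447860-9447959, minus strand: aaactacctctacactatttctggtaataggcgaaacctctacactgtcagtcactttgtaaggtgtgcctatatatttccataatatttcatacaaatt
K09B11.11, chrIV:13435887-13435986, minus strand: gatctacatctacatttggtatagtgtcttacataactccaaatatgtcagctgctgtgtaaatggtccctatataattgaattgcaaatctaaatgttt
The word GTCTGC was in the window of 4 of the 4 U6 genes at a listed peak. It was in 1 of the 19 other U6 genes, and that gene was R07E5.16. This word was picked after its values were seen, so it carries no test. Over all members the word was in 5 of the 12 genes at a peak and in 18 of the 117 others, which were mostly of other RNA types. It was in 5.39% of tRNA, 4.62% of snoRNA and 2.01% of protein-coding windows of the same length. TATAAA was in 10 of 23 U6 windows and in 19.3% of protein-coding ones, so that it was common outside these genes. Among the 4 U6 genes at a peak it was in 3, and the window of F54D8.7 did not hold it. It was also in 7 of the 19 U6 genes not at a listed peak, though not in F54C8.9 and K09B11.11. Only the exact letters TATAAA were counted, so a window without them may hold another form of the TATA box. Every U6 window shown holds the letters ctatata, those of F54D8.7, F54C8.9 and K09B11.11 among them. A match of letters is a description and not a binding site.

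The upstream windows of 4 SL2 genes are shown because genes with related RNAs differed in their peak calls. The RNA of sls-2.2 and that of sls-2.3 were each 92.7% the same as that of sls-2.1, and that of sls-2.8 was 74.8% the same. The first 2 were at a listed peak, sls-2.3 lay 456 bp from sls-2.2 without a listed summit within 200 bp of its own, and sls-2.8 had the strongest candidate peak that was not listed. Capitals mark CTTGCC, searched on either strand and also picked after its values were seen.
sls-2.1, chrII:5844765-5844864, plus strand: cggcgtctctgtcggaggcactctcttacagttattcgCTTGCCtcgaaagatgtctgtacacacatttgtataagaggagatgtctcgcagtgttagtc
sls-2.2, chrII:5543498-5543597, plus strand: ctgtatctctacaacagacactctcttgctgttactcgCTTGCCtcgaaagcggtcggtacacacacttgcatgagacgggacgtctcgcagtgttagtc
sls-2.3, chrII:5544274-5544373, minus strand: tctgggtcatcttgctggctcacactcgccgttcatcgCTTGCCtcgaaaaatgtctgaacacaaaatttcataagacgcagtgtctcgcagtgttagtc
sls-2.8, chrIII:12250365-12250464, plus strand: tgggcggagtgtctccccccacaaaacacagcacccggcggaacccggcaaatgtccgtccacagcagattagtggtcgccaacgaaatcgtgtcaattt
CTTGCC was upstream of 3 of the 4 SL2 genes at a peak (sls-2.1, sls-2.2 and sls-2.4) and of 1 of the 14 others (sls-2.3). Over all members the word was in 3 of the 12 genes at a peak and in 7 of the 117 others. It was in 2.17% of protein-coding and 3.76% of tRNA windows. The window of sls-2.2 was 79% the same as that of sls-2.1, that of sls-2.3 75% and that of sls-2.4 69%, against a median of 47% over the 17 other SL2 genes. These genes are thus close relatives also outside the RNA, and shared letters among them are not separate evidence.

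The last pair is a pair of U4 genes that make the same 144 bases of RNA, of which C52E4.8 was at a peak and T11F9.15 was not. Capitals mark TATAAA and the 5 words of 6 bases that were most widely shared upstream of the typed members, each on either strand. The first of these words is AACCCG, the next is GTACAC, and then there is CCGACA, which reads TGTCGG on the other strand. The last 2 are ACCCGC, and the word GAACCC, both of which can overlap the first.
C52E4.8, chrV:11980018-11980117, plus strand: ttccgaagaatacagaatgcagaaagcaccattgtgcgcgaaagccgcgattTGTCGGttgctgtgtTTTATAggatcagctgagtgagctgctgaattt
T11F9.15, chrV:11478048-11478147, plus strand: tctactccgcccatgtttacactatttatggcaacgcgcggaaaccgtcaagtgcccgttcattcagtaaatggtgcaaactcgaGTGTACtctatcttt
AACCCG was in 44 of the 113 typed members and in 1.61% of protein-coding windows, and GTACAC was in 42 of the typed members and in 2.13% of protein-coding windows. AACCCG was in 5 of the 12 members at a peak and in 40 of the 102 typed members away from one, and GTACAC in 4 of the 12 and 38 of the 102. CCGACA was in 5 of the 12 and 36 of the 102, and GAACCC in 4 of the 12 and 31 of the 102. These 4 words had similar shares with and without a peak. The 12 include the untyped mir-1831, while the 102 are typed members only, so the 2 sets are not alike. The window of mir-1831 overlaps that of sup-39, in which it lies, so shared DNA is counted again among the 12. The count of 5 for the first word, and the count of 6 given next, each include mir-1831. ACCCGC was in 6 of the 12 and 31 of the 102 (30.4%), and TATAAA in 5 of the 12 (41.7%) and 12 of the 102 (11.8%), which was not tested. The words differed in share between RNA types: AACCCG was in all 12 U5 windows and in none of the 20 U2 windows, while GTACAC was in 19 of the 20 U2 windows.

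Of the 129 genes, 12 were at a peak in at least 1 of 4 deposited lists, which is 9.3% (exact Clopper-Pearson 95% interval 4.9 to 15.7%, for counting error only). The share over all annotated genes was 3.27%. Leaving out the piRNA genes, a very large class that was nearly without peaks, the share over all other genes was 4.82%, just under the lower end of that interval. One pair of the 12 genes, sup-39 and mir-1831, shares a single peak, and the summit at sls-2.9 lies inside a tRNA gene. With 11 of 129 genes, the count that either of them leaves when it is taken out, the interval would be 4.33 to 14.7% and hold 4.82%. The tRNA genes stood at 37.4% (229 of 612, interval 33.6 to 41.4%) and the snoRNA genes at 16.8% (58 of 346, interval 13 to 21.1%). The snRNA and leader genes were thus at a peak less often than tRNA genes, with intervals that did not overlap, while the interval of the snoRNA genes overlapped theirs.

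The 4 lists are the conservative and the full list of the series, made by the authors from both replicates together, and 1 list for each replicate. The conservative list held a summit at 11 members, or 8.53%, against 2.29% of all genes, and the full list at 10. Replicate 1 had a listed summit at 7 members, or 5.43%, against 1.44% of all genes. Replicate 2 had one at 10 members, or 7.75%, against 2.16% of all genes. The count for replicate 1 alone is more than 1.5 times below the count over all lists. The lists of the replicates also differed in length, with 466 and 802 peaks.

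**Figure D1:**
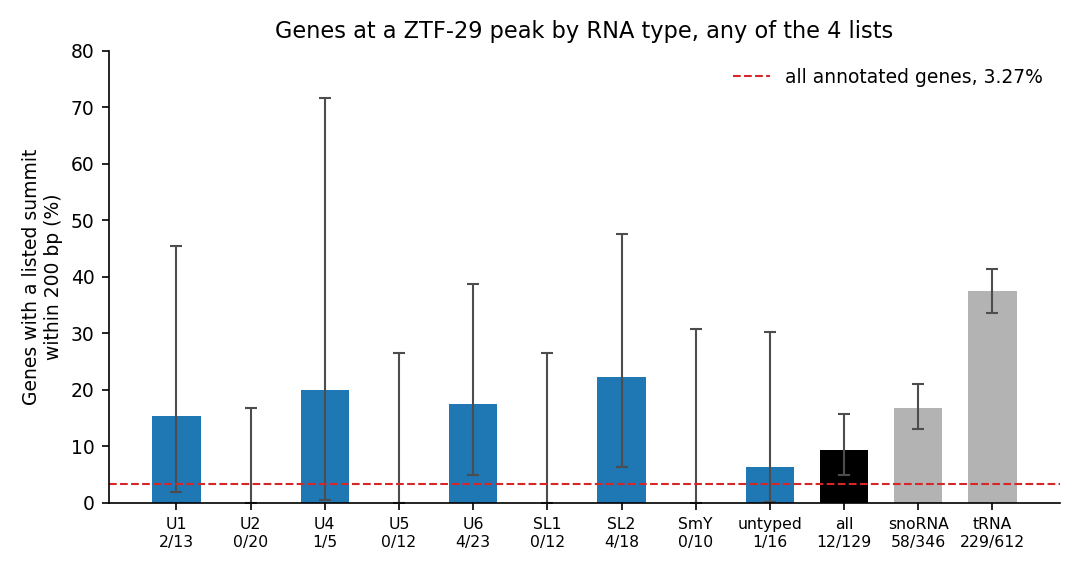
Percent of genes with a listed summit within 200 bp, in any of the 4 lists, for each RNA type (blue), all 129 members (black, "all") and the snoRNA and tRNA genes (grey). Bars start at 0, whiskers are exact 95% intervals for counting error and the dashed line is the share of all annotated genes. Among the blue bars, U6, SL2, U4, U1 and untyped genes stand above the line with wide whiskers, and 4 types have no gene at a peak.

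The genes at a peak were also counted by RNA type. By type, 4 of 18 SL2 genes (22.2%, interval 6.41 to 47.6%), 4 of 23 U6 genes (17.4%, interval 4.95 to 38.8%), 2 of 13 U1 genes and 1 of 5 U4 genes were at a peak. None of the 20 U2, 12 U5, 12 SL1 and 10 SmY genes was. The upper limits of those zeros were 16.8% for U2, 26.5% for U5 and SL1 and 30.8% for SmY, so the intervals of all types overlapped and these counts do not set the types apart. Taken by class, 7 of 73 U snRNA genes (9.59%, interval 3.94 to 18.8%) and 4 of 30 leader genes (13.3%, interval 3.76 to 30.7%) were at a peak. The U snRNA count was 4 in the list of replicate 1 alone. The remaining gene at a peak, mir-1831, is a 22-base gene that the annotation puts in the snRNA class despite its name. It lies inside the U1 gene sup-39 on the same strand and shares its peak, so the 12 genes stand for 11 separate loci.

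The U4 gene C52E4.8 had the highest signal of the members in the conservative list, at 223.6 (rank 62 of 814). The signal was 82.1 in replicate 1 (rank 82 of 466) and 136.9 in replicate 2 (rank 71 of 802), so the peak stood in the upper part of both lists. Within replicate 1, W05B2.8 and sls-2.1 ranked above it, and within replicate 2, sls-2.9 did. The signal is the authors' value per peak on a scale that the sources do not state, so that it orders peaks within a list and is not compared between lists. The irreproducible discovery rate (IDR), the expected share of peaks at least as well ranked that would not recur, was 2.98e-05 for this peak. The summit lay 42 bp upstream of the RNA's first base, and 46 and 38 bp upstream in replicates 1 and 2. It also lay 353 bp upstream of an annotated start of snr-4, which encodes a protein of the Sm ring that U4 and other snRNAs carry, so the peak cannot be given to one of these genes by position.

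The other U4 genes had no listed peak. T11F9.15, with the same RNA and 501826 bp away, had no candidate within 200 bp in any of the 4 ranked lists, which run from 38705 to 54900 peaks, most of them far weaker than the listed ones. Its flanks were as unique in the genome as those of C52E4.8, at 100% in both genes by the measure described below. Their upstream windows were 49% the same. F10D2.13 had a weak candidate with a signal of 38.5 (rank 9386 of 54900, IDR 0.574).

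W05B2.8 had the strongest U6 peak in each of the 4 lists. Its signal was 216.5 (rank 74 of 814) in the conservative list, 98.3 in replicate 1 (rank 44 of 466) and 124.6 in replicate 2 (rank 87 of 802), high in each of them. The gene lies at chrIII:10989679-10989780 on the plus strand, within the span of the protein-coding gene dhc-4, and the summit lay 49 bp into it.

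C28A5.7, at chrIII:4426854-4426955 on the minus strand, had a signal of 167.3 (rank 135 of 814). Its signal was 44.3 in replicate 1, near the lower end of that list (rank 346 of 466), and 117.7 in replicate 2 (rank 104 of 802). F54D8.7, at chrIII:5080798-5080898 on the minus strand, had the reverse order of ranks. Its signal was 113.2 (rank 331 of 814), with 60.7 in replicate 1 (rank 168 of 466) and 57.8 in replicate 2 (rank 585 of 802). Summits lay 7 bp upstream of the RNA's first base in C28A5.7 and 10 bp into it in F54D8.7. The place of both genes in the lists thus moved between replicates. The summit at C28A5.7 lay 4 bp into the gene in replicate 1 and 7 bp upstream of it in replicate 2. That at F54D8.7 lay 14 bp into the gene in replicate 1 and 7 bp into it in replicate 2.

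K09C6.12, at chrV:859091-859192 on the plus strand, was the weakest U6 gene at a peak and was listed only in the full list. Its signal there was 69.2 (rank 933 of 1114, IDR 0.00649). The candidate at the same place in the conservative ranked list had an IDR of 0.733. Replicate 2 had a candidate with a signal of 52.1 (IDR 0.0146), and replicate 1 had none, so the call rested on 1 of 4 lists. The summit also lay 146 bp upstream of a start of the protein-coding gene K09C6.2.

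The 14 U6 genes with one and the same RNA included 3 at a peak, W05B2.8, C28A5.7 and K09C6.12. R07E5.16, which makes the same RNA 12567 bp from C28A5.7, stood just outside the lists with a candidate of signal 68.9 (rank 1225 of 54900, IDR 0.0162). Its upstream window was 75% the same as that of C28A5.7, and that of K09C6.12 was 85% the same, against a median of 51.5% over the 22 other U6 genes. The window of W05B2.8, with the strongest peak, was 55% the same, within the range of U6 genes without a peak. In replicate 1 alone, Y9C9A.111 had a candidate with a signal of 40.3 and an IDR of 0.0107, just over the 0.01 that listed peaks kept to, and no candidate in the other 3 ranked lists.

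Both U1 genes at a peak carry names from genetic screens for suppressors. Sup-6, at chrII:12944803-12944967 on the minus strand, had a signal of 87.6 in the conservative list (rank 535 of 814) and 57.6 in replicate 2 (rank 588 of 802). Sup-39, at chrII:6968394-6968558 on the minus strand, had a signal of 84.9 (rank 561 of 814) and 57.9 (rank 582 of 802). Neither was listed in replicate 1, where their candidates had an IDR of 0.69 and 0.0524, and sup-39 was missing from the full list as well (IDR 0.0383 there). These were therefore peaks of the lower part of the lists, listed in 1 of the 2 replicates and present as candidates in the other. Each gene lies within the span of a protein-coding gene, F58G1.7 for sup-6 and C15F1.5 for sup-39.

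The SL2 genes sls-2.1 and sls-2.4 had almost the same conservative signal, 149.5 (rank 181 of 814) and 148.5 (rank 183). In replicate 1 they had 86.3 and 78.1 (ranks 71 and 92 of 466), and in replicate 2 they had 68.3 and 60.2 (ranks 411 and 534 of 802). Both thus stood high in the list of replicate 1 and near or below the middle of that of replicate 2. Their summits lay 27 and 82 bp into the gene. Sls-2.4 lies on chromosome I, at 4172206 to 4172315.

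Sls-2.9 had the highest signal of the SL2 genes in the conservative list, 192.9 (rank 93 of 814). It was also the highest of them in replicate 2, with 137.4 (rank 69 of 802), but the lowest of the 3 listed in replicate 1, with 50.3 (rank 260 of 466). Its summit lay 141 bp upstream of the gene and inside the tRNA gene M01E5.t1. It was the only member at a peak whose summit lay inside or nearer to a tRNA or snoRNA gene. Since tRNA genes were often at a peak, this peak cannot be given to the SL2 gene by position.

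Sls-2.2 was the weakest of the SL2 genes at a peak, with a signal of 81.8 (rank 604 of 814) and a summit 106 bp into the gene. It was in the list of neither replicate. Its candidates there had a signal of 30.9 with an IDR of 0.211 and a signal of 50.4 with an IDR of 0.0247. Its neighbour sls-2.3 lay 460 bp from the nearest listed summit, which is the one at sls-2.2, and was the member just outside the limit of 200 bp. Sls-2.3 had its own candidate with a signal of 57.4 (rank 2089 of 54900, IDR 0.186). After it, the nearest member without a peak was the U2 gene F08G2.9 at 1422 bp from a listed summit, so few genes were close to the limit. Just inside it were sls-2.9 at 138 bp and C52E4.8 at 38 bp, and every other gene at a peak had a summit inside the gene in some list.

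**Figure D2:**
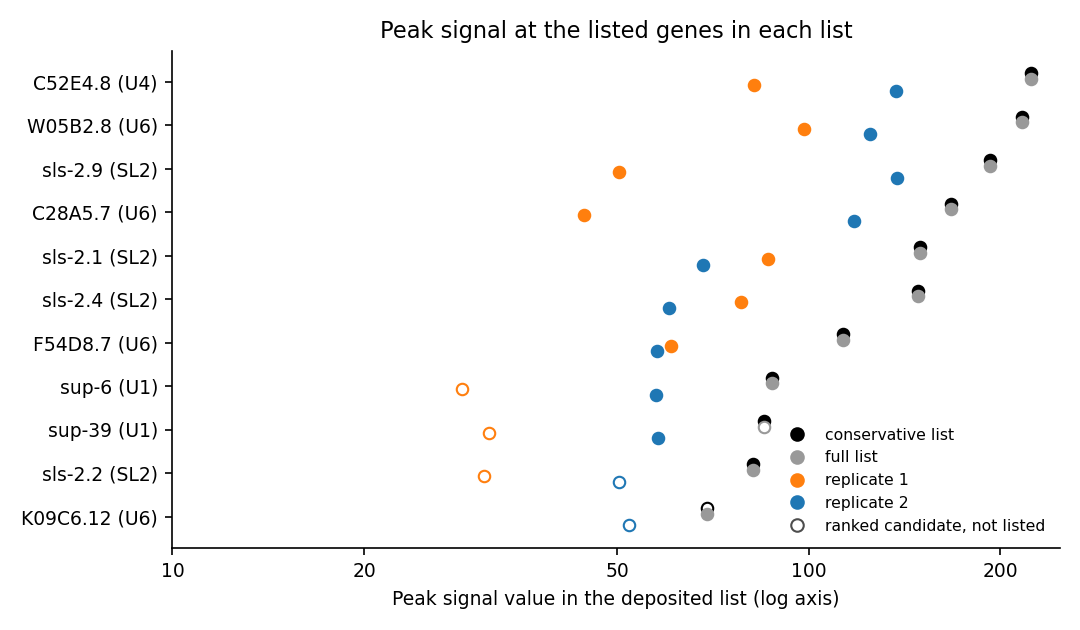
Signal of the peak at each gene (log axis) in the conservative list (black), the full list (grey), replicate 1 (orange) and replicate 2 (blue); filled points are listed peaks, open points ranked candidates that were not listed, and mir-1831 is left out because it shares the peak of sup-39. The upper 7 genes are filled in all 4 lists, and the lower 4 have open points or gaps in at least 1 of them.

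The replicates shared most of these calls. All 7 members listed in replicate 1 were also listed in replicate 2, and they made up 70% of the 10 members listed there. The 7 were the U4 gene C52E4.8, the U6 genes W05B2.8, C28A5.7 and F54D8.7, and the SL2 genes sls-2.1, sls-2.4 and sls-2.9. The 3 listed in replicate 2 alone were sup-6, sup-39 and the mir-1831 within it. Of the 10 separate peaks in the conservative list, 7 were in the stronger part, with a signal above the list's median of 101.7, and they were those same 7 genes.

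Most summits lay at or within the RNA gene. In the conservative list the 11 pairs of a gene and a summit had a median distance of 10 bp downstream of the gene's first base, from 141 bp upstream to 109 bp downstream, and 7 of the 11 summits lay inside the gene. In replicate 1 the median was 14 bp over 7 pairs, and in replicate 2 it was 15 bp over 11 pairs. The full list gave 27 bp, because it left out sup-39 and mir-1831 and added K09C6.12 and another peak at sls-2.4. By type, the 3 U6 summits lay from 7 bp upstream to 49 bp downstream and the 4 SL2 summits from 141 bp upstream to 106 bp downstream. Conservative peaks at the members were 70 to 276 bp wide, and the wider ones span more than the gene, so their summits do not set the RNA-coding part apart from the promoter next to it. The summit of sup-6 lay 109 bp into the gene in the conservative list and 2 bp into it in replicate 2, which shows how far a weak peak's summit could move.

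**Figure D3:**
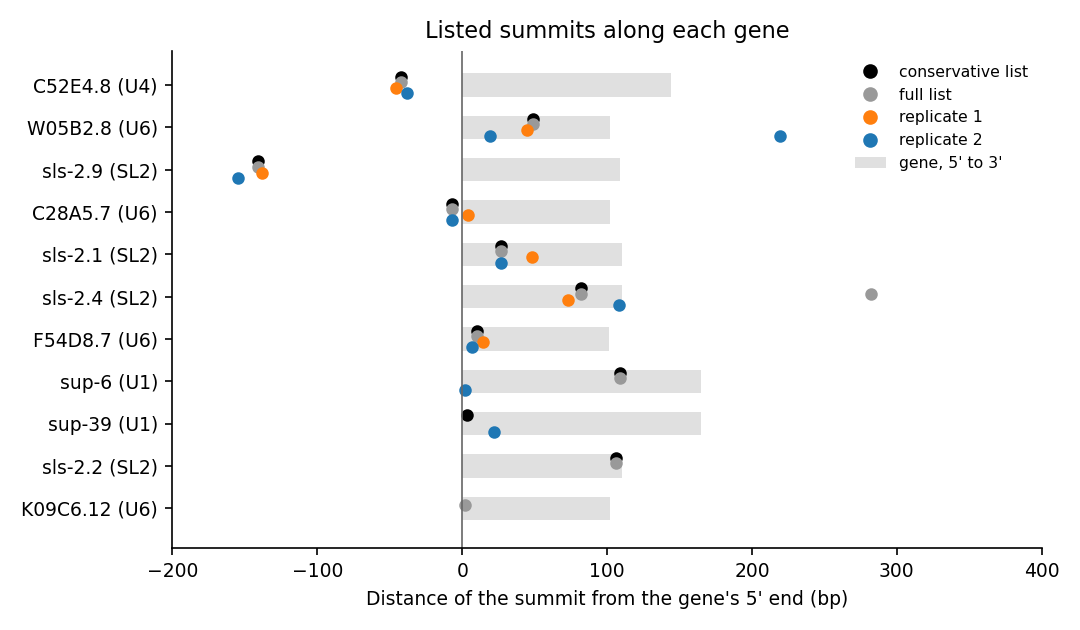
Position of every listed summit within 200 bp of a gene, in bp from the gene's first base with the RNA running to the right; grey bars are the genes to scale and colours are the 4 lists. Summits of C52E4.8 and sls-2.9 lie upstream of the gene in each list, and those of most other genes lie in its first 110 bp.

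Most of the 117 members without a listed peak had no strong candidate either. In the conservative ranked list 52 of all 129 members, or 40.3%, had a candidate within 200 bp, against 41.2% of all genes. Of the 117 members without a listed peak, 40 had one, 2 with an IDR of at most 0.05 and 25 with an IDR over 0.5. The 2 were R07E5.16 and the SL2 gene sls-2.8. Sls-2.8 had the highest signal among them at 74.7 (rank 1010 of 54900, IDR 0.0348), with 42.5 in replicate 1 (IDR 0.0194) and 30.1 in replicate 2 (IDR 0.801). Its candidate thus stood near the limit in 1 replicate and far from it in the other. A candidate in both replicates was found at 31 members, or 24% (interval 16.9 to 32.3%), against 26.9% of all genes. Both shares of the members were near those of all genes, but all genes include the piRNA genes. Only 1.13% of piRNA genes had a candidate in both replicates. That share was 32.7% for snoRNA, 47.7% for protein-coding and 54.9% for tRNA genes, but 23.5% for ncRNA and 16.9% for miRNA genes. The reading thus depends on which genes serve as the background.

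For the types with no gene at a peak, the strongest candidates are given as a description. Among U2 genes, F08G2.10 had a signal of 68.1 (IDR 0.212), with an IDR of 0.0376 in replicate 2, and F11A5.14 had 52 (IDR 0.3). For U5 it was F38E11.10 with 49.9 (IDR 0.749), which in replicate 1 had an IDR of 0.015, and ZK897.4 with 39.5 (IDR 0.426). The only SmY gene with a candidate in the conservative ranked list was smy-6, with 35.6 (IDR 0.635). In replicate 2 alone, smy-1 had a candidate with a signal of 41.3 (IDR 0.0335). A candidate in the conservative ranked list was within 200 bp of 12 of 20 U2 genes (interval 36.1 to 80.9%), 7 of 12 U5 genes (27.7 to 84.8%) and 1 of 10 SmY genes (0.253 to 44.5%). Each of these intervals holds the 41.2% of all genes. That share includes the piRNA genes and was not computed without them. It therefore does not settle whether a type stands apart from other kinds of gene.

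**Figure D4:**
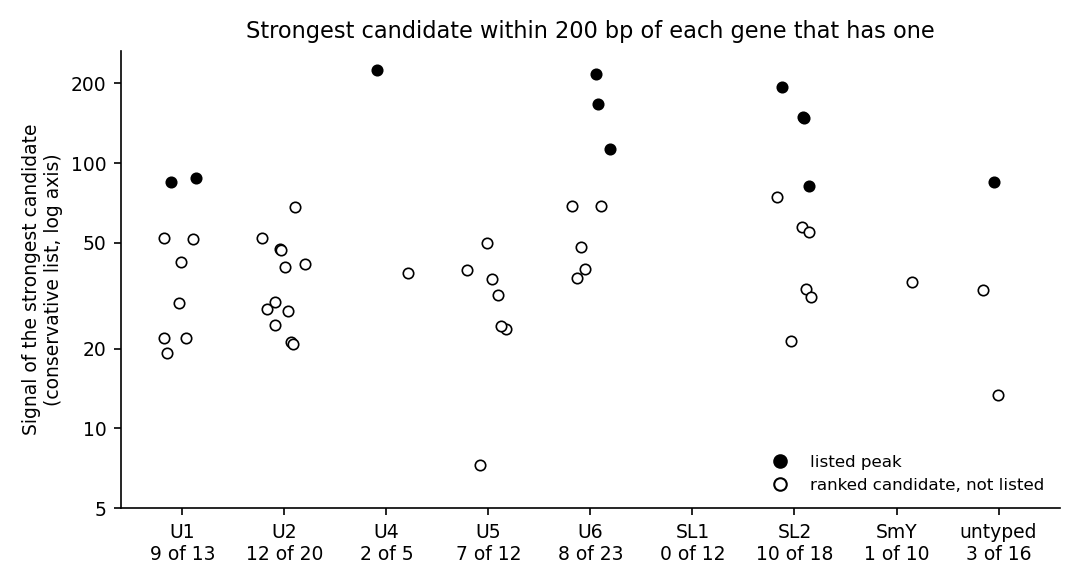
Signal (log axis) of the strongest candidate in the conservative ranked list within 200 bp of each gene, by RNA type, with the number of genes that had one under each type. Filled points are listed peaks and open points are not; all filled points lie above 80, all open ones below 75, and SL1 has no point.

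The SL1 genes had no candidate in the conservative ranked list or in either replicate, at 0 of 12 in each. They lie as a repeat on chromosome V, and none of the 32-base words within them was found only once in the genome. In the 200 bp on each side of them a median of 0% of words was unique, and at most 28.4%. The length of 32 was a choice, since none of the sources used here gives the read length or says how reads with several possible places were treated. The part of this in the lack of candidates was not tested.

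For the other types the flanks were mostly unique. The median share of unique words in the flanks was 91.3% for U2, 85.5% for U6, 97% for U1, 99.4% for SL2, and 100% for U4, U5 and SmY. Within the RNA itself the median was 0% for U2 and U6. The 12 members at a peak had flanks with at least 71.3% unique words, and 17 of the 117 others had under 50%. Those 17 included all SL1 genes. The part of uniqueness in the calls of the others was not tested.

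**Figure D5:**
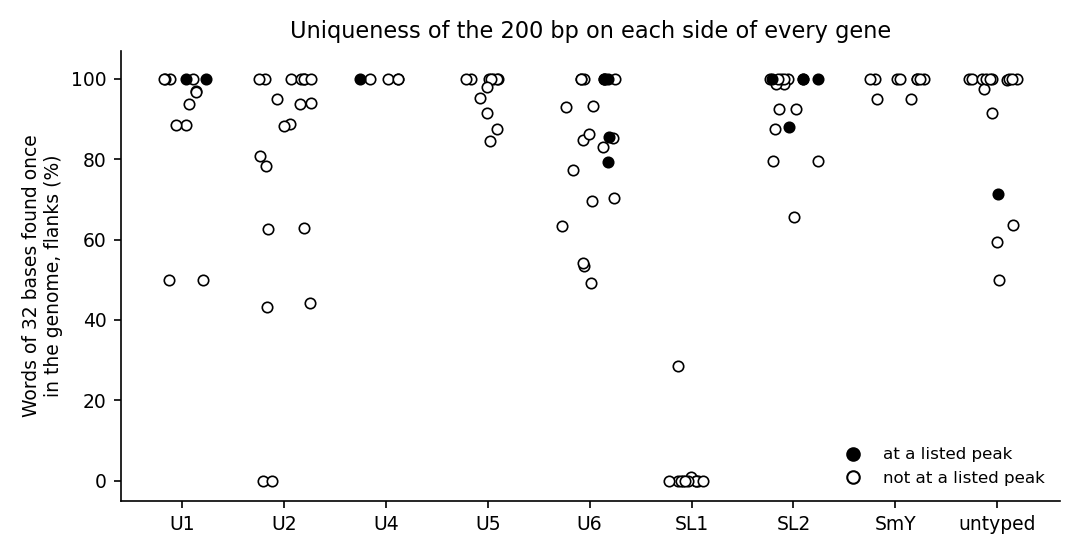
Percent of 32-base words in the 200 bp on each side of a gene that occur once in the genome, by RNA type, with genes at a listed peak filled and others open. The SL1 genes lie at the bottom between 0 and 28.4%, and all filled points lie at or above 71.3%.

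The members at a peak are set here beside the share of all genes other than piRNA genes at a peak on the same chromosome. Chromosome II held 5 of its 16 members at a peak, sup-39 and the mir-1831 within it among them, against 4.61% of its genes. Chromosome III held 3 of 13 against 6.45%, chromosome I 2 of 16 against 6.87% and chromosome V 2 of 40 against 2.66%. Chromosome IV held 0 of 41 against 4.25%, and chromosome X 0 of 3 against 5.82%. On chromosome IV, 28 of the 71 tRNA genes were at a peak, so it was not without peaks at small RNA genes. Its members are mostly of 2 types, with 13 U6 and 11 U5 genes, and the part of RNA type in this was not tested. On chromosome III, the peaks were at 3 of the 7 U6 genes there.

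A list of genes meant to cover the proteins that make, modify or carry these RNAs was looked at through promoter windows. These windows reach 500 bp upstream and 100 bp into the gene from any annotated start. Of 80 listed symbols 68 were in the annotation, and 3 of these, or 4.41%, had a summit in the window in any list, against 2.43% of all protein-coding genes. The list used put snr-1 and snr-4 under Sm and LSm proteins, and tut-2 under proteins of the snRNA particles. The function of tut-2 was not checked beyond that list. The 4.41% counts tut-2, so it holds for the list as drawn up and not for a checked class. Snr-4 shares the peak of C52E4.8 described above. Snr-1, another gene for an Sm ring protein, had a signal of 116.6 (rank 315 of 814) with a summit 439 bp upstream of its start, and 48.4 and 63.3 in replicates 1 and 2. Tut-2 had a summit in the full list alone, with a signal of 53.8 (rank 1055 of 1114). None of the 13 genes for snRNA gene transcription had a summit in its window. The same held for the 11 for Integrator, the complex that trims the ends of snRNAs. It also held for the 5 genes listed under trans-splicing (sna-1, sna-2, sut-1, sut-2 and snap-1). Whether each of these acts in trans-splicing was not checked.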

How the data were processed

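The authors made peak lists on ce11, per the file headers, from alignments that were not analysed here. The sources used here do not give the aligner, peak caller, read length or depth. The deposited signal of a peak is the authors' value on an unstated scale. The deposited score is a scaled IDR of at most 1000, and the ranked lists add another score, the global IDR as minus log10, of at most 5. Listed peaks had an IDR of at most 0.01.

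Summits were set against Ensembl release 115 genes of WBcel235 (the same assembly) within 200 bp. Neither annotation names U types, so genes were typed by symbol, then by short elements at fixed positions, then by at least 80% identity to a typed gene, which left 16 untyped. Types were U1 13, U2 20, U4 5, U5 12, U6 23, SL1 12, SL2 18 and SmY 10. Copies that share a symbol go by their WormBase sequence name. Identity is 100% minus edit distance over the longer sequence. Upstream words of 6 bases were counted in 100 bp, on both strands. Shares have exact 95% intervals.

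Members, lists and the naming rule were chosen with earlier results of these data known. The rule named every member at a peak, the 2 strongest candidates of types without one, the genes nearest the 200 bp limit and pathway genes with a summit; R07E5.16, Y9C9A.111, F10D2.13, T11F9.15, sls-2.8, smy-1, Y17G9A.85, T08B6.62 and the words GTCTGC and CTTGCC were chosen after their values were seen. F54C8.9 and K09B11.11 were shown as examples without a rule. Alternatives were other distances, single lists, each replicate's own list, stronger peaks and overlap. The overlap code was tested on simulated data. Python 3.11.15, numpy 2.4.6, pandas 2.3.3, scipy 1.17.1, edlib 1.3.9.post1 and matplotlib 3.10.9 were used.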

Additional observations from a re-analysis of the deposited data

How the results depend on the processing

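With 1 group of 2 samples and no test, the results are counts and a median, and 37 of 51 alternatives kept a count within 1.5 times, or the median within the spread of the replicates. No alternative gave a median upstream of the gene. With only the list of 1 replicate used, and both lists of the series also left out, the members at a listed peak numbered 7 to 10. The U snRNA genes then numbered 4 to 6 and the leader genes 3 in either case. The median distance was 14 to 15 bp against 10 bp in the conservative list. With only peaks of at least each list's median signal, the counts were 7 members, 4 U snRNA genes, 7 members in the conservative list and 2 members in both replicates. With the summit required inside the gene, 7 members were left in the conservative list, 4 in both replicates and 10 with a candidate in both replicates. With candidates of an IDR of at most 0.05, that last count was 7. The median distance was 27 bp in the full list and 18.5 bp without the pair at a tRNA gene. Merging overlapping genes, leaving out untyped members and leaving out members with repeated flanks were added after seeing the data and gave 11, 11 and 31. No paired analysis was possible because there is only 1 group. The read depth is unknown, so a gene without a peak cannot be told from one below the depth these libraries could show.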

Other observations

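The 16 members that could not be given a type held 1 gene at a peak, mir-1831. Of these genes 3 had a candidate in the conservative ranked list, 2 in replicate 1 and 4 in replicate 2, and 1 in both replicates, which was again mir-1831.

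A further summit lay near 2 members that had a stronger one. At W05B2.8 it was a replicate 2 peak 219 bp downstream of the gene's first base, with a signal of 24.3 and a rank of 798 of 802. At sls-2.4 it was a peak of the full list 282 bp downstream, with a signal of 16.2 and a rank of 1077 of 1114. By signal both were near the end of their lists, and neither was in another list. The IDR was 0.00324 for the one at W05B2.8 and 7.58e-05 for the one at sls-2.4. The stronger peak at sls-2.4 had 7.5e-05 in the full list, so by IDR the further one was not weaker to the same degree.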
